A study of Mus musculus with 24 samples.

Results

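The Iroquois genes *Irx1*, *Irx2*, *Irx3* and *Irx5* and the Zic genes *Zic1*, *Zic2*, *Zic4* and *Zic5*, 8 of the 54446 genes in the count tables, were followed through the embryonic mouse brain with and without *Tfap2b*, which encodes the transcription factor AP-2 beta. They were chosen by name, as members of these gene families, and each of the 8 had enough counts to be tested in every comparison. RNA of 12 embryos at E14.5 was sequenced, 3 of each sex and genotype, and each brain was divided into the secondary prosencephalon (SP, the rostral forebrain with telencephalon and hypothalamus) and a piece with diencephalon, midbrain and hindbrain (DMH), giving 24 libraries. Mutants were *Tfap2b*-/- from crosses of heterozygous parents and carry the disrupted gene in every cell from conception, with a PGK-neo cassette in one of its exons, and controls were *Tfap2b*+/+ littermates. Levels are given as CPM, the counts of a gene per 1000000 counts of the library after its total was scaled by a TMM factor, and are relative to the RNA of a whole dissected piece. Fewer cells that express a gene and less RNA of it per cell cannot be told apart on this scale.

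Iroquois proteins are homeodomain transcription factors, and their genes lie in clusters whose members share much of their expression pattern. In the neural tube they are expressed caudal to the rostral forebrain, where *Irx3* and the forebrain gene *Six3* mark opposite sides of a boundary within the diencephalon, and *Irx2* takes part in the formation of the cerebellum. Zic proteins are zinc finger transcription factors related to the Gli proteins, the effectors of Sonic hedgehog signalling. They are expressed along the dorsal neural tube, in the midline of the forebrain, in granule cell precursors of the cerebellum and in the meninges, and loss of *ZIC2* is a known cause of holoprosencephaly in humans.

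The 8 genes form 4 pairs of neighbours in the mouse genome (GRCm38, GENCODE vM21). *Irx1* (chr13:71957921-71963723, minus strand) and *Irx2* (chr13:72628820-72634198, plus strand) start 665.1 kb apart, and *Irx3* (chr8:91798525-91802067, minus strand) and *Irx5* (chr8:92357625-92376286, plus strand) start 555.6 kb apart. *Zic2* (chr14:122475435-122479852, plus strand) and *Zic5* (chr14:122456795-122465677, minus strand) run away from each other from starts 9.8 kb apart. *Zic1* (chr9:91358058-91365810, minus strand) and *Zic4* (chr9:91362413-91389348, plus strand) overlap over 3398 bases on opposite strands, of which 60 are exonic in both. There were 0 protein-coding genes annotated between the members of any pair. The counts used here kept the strand, so reads of the *Zic1* and *Zic4* overlap and of *Irx3* and its antisense gene *Irx3os* (1653 bases of overlap) were assigned by strand, and the exons of the 8 genes shared 0 stretches of 100 bases.

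AP-2 proteins bind the palindrome GCCNNNGGC, so the start regions of 4 of the genes, 1 pair of Zic neighbours and 1 gene of each Iroquois cluster, are shown with this motif in capitals. RefSeq (GRCm38.p6) gave the region from 250 bases before to 50 bases after the start for 5 of the 8 genes, namely these 4 and *Zic5*. RefSeq starts need not be those of the GENCODE models.
Irx2 start region (chr13:72628570-72628869, plus strand): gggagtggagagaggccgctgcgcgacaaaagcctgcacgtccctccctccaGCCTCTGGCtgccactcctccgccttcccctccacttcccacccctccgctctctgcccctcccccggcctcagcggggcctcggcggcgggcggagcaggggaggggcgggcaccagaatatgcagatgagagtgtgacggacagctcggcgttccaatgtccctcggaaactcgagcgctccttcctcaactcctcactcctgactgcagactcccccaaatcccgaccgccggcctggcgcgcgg
Irx3 start region (chr8:91801605-91801904, minus strand): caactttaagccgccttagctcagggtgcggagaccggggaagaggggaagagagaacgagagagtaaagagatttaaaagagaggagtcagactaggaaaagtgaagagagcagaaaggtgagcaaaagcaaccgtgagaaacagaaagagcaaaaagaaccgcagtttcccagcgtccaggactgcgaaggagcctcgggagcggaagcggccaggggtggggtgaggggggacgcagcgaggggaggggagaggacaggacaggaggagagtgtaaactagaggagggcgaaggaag
Zic1 start region (chr9:91365719-91366018, minus strand): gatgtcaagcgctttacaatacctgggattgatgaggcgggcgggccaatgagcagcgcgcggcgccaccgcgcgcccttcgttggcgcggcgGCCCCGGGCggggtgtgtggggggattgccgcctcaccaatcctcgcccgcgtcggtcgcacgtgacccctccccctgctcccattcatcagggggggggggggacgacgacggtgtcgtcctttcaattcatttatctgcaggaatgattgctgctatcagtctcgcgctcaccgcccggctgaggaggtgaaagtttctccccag
Zic4 start region (chr9:91368722-91369021, plus strand): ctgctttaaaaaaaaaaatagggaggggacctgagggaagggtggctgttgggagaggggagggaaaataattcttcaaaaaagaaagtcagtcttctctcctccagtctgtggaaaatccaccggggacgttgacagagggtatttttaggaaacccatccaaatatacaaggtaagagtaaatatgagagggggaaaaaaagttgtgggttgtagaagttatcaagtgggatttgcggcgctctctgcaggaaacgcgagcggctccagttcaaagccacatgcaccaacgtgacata

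The motif, searched on both strands, was present at 1 place in the *Irx2* region, with its first base at -198 relative to the start, and at 1 place in the *Zic1* region, at -157. The *Irx3*, *Zic4* and *Zic5* regions held 0 copies. Of 32841 RefSeq start regions of this length, 16.6% held the motif. The box TATAAA, present in 13.6% of all start regions, was in none of these 5. GC content was 69.0% in *Irx2*, 56.0% in *Irx3*, 65.3% in *Zic1*, 62.7% in *Zic5* and 46.0% in *Zic4*, against a median of 52.7%, and *Zic1* held 31 CG dinucleotides where the median region held 7.

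The libraries held 24717386 to 66844175 counts on genes, so that 3 counts correspond to 0.0455 to 0.123 CPM. *Tfap2b* was at 281 to 435 CPM in control DMH and 50.4 to 56.6 CPM in mutant DMH. It fell by 2.85 on the log2 scale there (SE 0.11, edgeR adjusted p = 2.5e-07 over both sexes) and did not pass the test in SP, where it was at 2.75 to 4.72 CPM. Forebrain markers (*Emx1*, *Emx2*, *Tbr1*, *Dlx5*, *Nkx2-1*) summed to 568 to 857 CPM in SP and 46.2 to 119 CPM in DMH. Some libraries stood apart. The DMH library of female mutant 3 held 627 CPM of skeletal muscle genes, against 7.84 to 10.7 CPM in the other DMH libraries, with 1739 CPM of cartilage and 2424 CPM of meningeal genes. This embryo was left out of the tests, as in the study. The DMH libraries of female control 1, female mutants 1 and 2 and male mutant 2 were nearly free of 12 caudal *Hox* genes, which mark the caudal hindbrain, with 0.0378 to 1.56 CPM in sum where the other DMH libraries held 248 to 431 CPM. The embryo labelled female control 2 carried Y-linked transcripts in SP and DMH, with *Xist* at 0.0341 and 0.0907 CPM against 174 to 914 CPM in the other libraries labelled female. It was kept under its label, and calls with and without it are given.

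DMH was rich in transcripts of all 8 genes, and *Zic1* was by far the most abundant of them. On the scale of CPM per kilobase of exon, which allows comparison between genes, control DMH contained 82.6 ± 6.18 (SD, n = 6) of *Zic1* and 35.3 ± 3.89 of *Zic2*, the holoprosencephaly gene. Next came *Irx2* with 17.9 ± 2.99, *Irx1* with 16.1 ± 3.21 and *Irx3* with 14.01 ± 3.81 CPM per kilobase. *Zic5* followed with 11.3 ± 1.69, *Irx5* with 9.56 ± 2.66 and *Zic4* with 9.47 ± 0.989 CPM per kilobase. *Zic1* and *Zic2* were separated from each other and from the rest by more than their SDs, whereas each neighbouring pair from *Irx2* down to *Zic4* in this order lay within 1 SD of each other or had overlapping ranges of mean ± SD. The place of *Zic4* depended on the length used, since its 12 annotated transcripts cover 10335 exonic bases but the longest has 3891. With the longest transcript *Zic4* was at 25.2 CPM per kilobase, above *Irx2* at 22.4 on that scale.

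The Iroquois genes were almost restricted to DMH. In control DMH, *Irx1* was at 31.5, 37.8, 38.8, 41.7, 47.8 and 55.5 CPM, listed from the lowest to the highest library, and in control SP at 0.102, 0.131, 0.178, 0.350, 0.580 and 1.21 CPM. The SP values rest on 4 to 44 counts. *Irx2* was at 45.2 to 73.8 CPM in control DMH (median 56.5) and at 0.0766 to 1.65 CPM in control SP (median 0.223). *Irx3* was at 26.6 to 56.0 CPM (median 36.8) and 1.09 to 2.06 CPM (median 1.43), and *Irx5*, which also acts in the retina and the heart, at 21.2 to 44.8 CPM (median 27.9) and 0.229 to 1.02 CPM (median 0.364). The lowest DMH library exceeded the highest SP library by a wide margin for each of the 4 genes.

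The Zic genes were expressed in both pieces and were higher in DMH. *Zic1*, which keeps cerebellar granule cell precursors from differentiating, was at 413, 452, 471, 480, 489 and 516 CPM in control DMH and at 122, 203, 246, 250, 250.4 and 302 CPM in control SP. *Zic2* was at 91.7 to 123 CPM in DMH (median 99.5) and 43.3 to 74.6 CPM in SP (median 65.3). *Zic4*, deleted together with *ZIC1* in some patients with Dandy-Walker malformation, was at 88.5 to 116 CPM (median 95.9) and 22.2 to 76.5 CPM (median 52.2). *Zic5*, the neighbour of *Zic2*, was at 44.7 to 69.6 CPM in DMH and 27.3 to 43.6 CPM in SP. Control DMH and SP did not overlap for any of these genes, but the gap was narrow for *Zic5*. Genes of meninges and mesenchyme, where Zic genes are also expressed, summed to 598 to 859 CPM in control DMH and 356 to 511 CPM in control SP. How far these tissues enter the Zic differences was not tested.

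**Figure D1:**
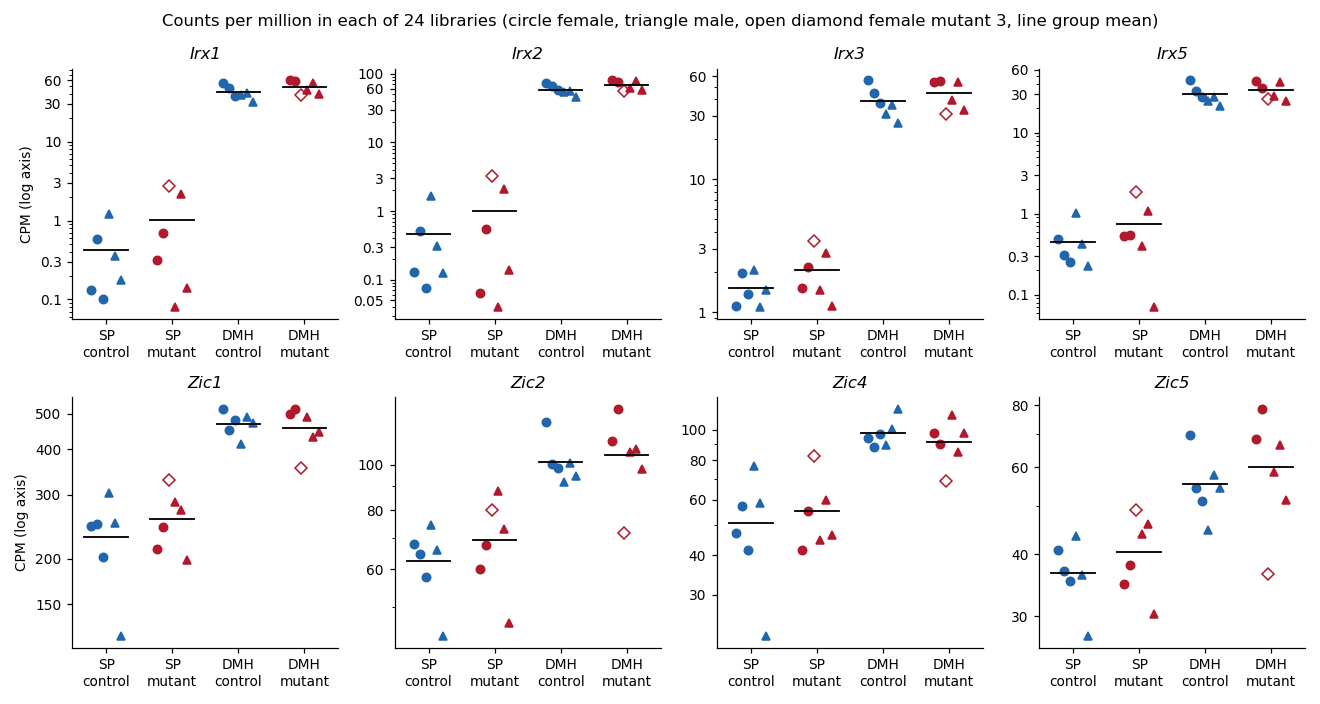
CPM of the 8 genes in each of the 24 libraries on a log axis, by piece (SP, DMH) and genotype, with circles for females, triangles for males, an open diamond for female mutant 3 and a line at the mean of each group of 6. The 4 Irx genes lie at 3.45 CPM or less in every SP library and at 21.2 CPM or more in every DMH library, while the Zic genes are well expressed in both.

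The comparison of DMH with SP asked which of these genes mark the caudal piece, first in control embryos and then in mutants. All 8 were higher in control DMH, where 21.2% of the 17196 genes tested were higher at the study's thresholds of FDR under 0.2 and absolute log2 fold change over 0.5 (35.9% in either direction). The difference was 97.1-fold for *Irx1* (log2 6.60, SE 0.38, edgeR adjusted p = 7.8e-08), 122-fold for *Irx2* (log2 6.93, SE 0.44), 63.8-fold for *Irx5* (log2 5.99, SE 0.30) and 24.7-fold for *Irx3* (log2 4.62, SE 0.19). It was 2.04-fold for *Zic1* (log2 1.03, SE 0.18), 1.92-fold for *Zic4* (log2 0.94, SE 0.25), 1.61-fold for *Zic2* (log2 0.69, SE 0.12) and 1.49-fold for *Zic5* (log2 0.58, SE 0.11). The largest adjusted p of the 8 was 0.0067, for *Zic4*. The *Irx1* and *Irx2* values rest partly on the SP library of male control 1. Without that embryo they were 7.36 and 8.05 on the log2 scale. The Zic values were lowest without male control 3, whose SP library was the lowest in all 4 Zic genes. They were then 0.90 for *Zic1*, 0.62 for *Zic2*, 0.74 for *Zic4* and 0.51 for *Zic5*, and all 8 still passed. Without female control 2 all 8 passed as well.

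In mutants, all 8 were again higher in DMH, beside 20.3% of 17148 genes (36.2% in either direction). The log2 differences were 6.08 (SE 0.51) for *Irx1*, 6.75 (SE 0.57) for *Irx2*, 4.62 (SE 0.23) for *Irx3*, 5.93 (SE 0.36) for *Irx5*, 0.93 (SE 0.12) for *Zic1*, 0.68 (SE 0.16) for *Zic2*, 0.91 (SE 0.11) for *Zic4* and 0.69 (SE 0.14) for *Zic5*. Without male mutant 2, whose SP library held the most Irx counts of those tested, the values of *Irx1* and *Irx2* were 7.29 and 8.26, and with female mutant 3 they were 5.502 and 5.96. When the 3 mutant embryos with a DMH library nearly free of caudal *Hox* counts were left out, which left 2 males, *Zic2* and *Zic5* no longer passed, with log2 0.51 (edgeR adjusted p = 0.33) and 0.48 (edgeR adjusted p = 0.22), and *Irx1* and *Irx2* were at 8.47 and 9.23. In that fit 6 of the 8 passed, beside 6555 of 16852 genes (38.9%) in either direction. The difference between genotypes in this contrast was tested by the interaction described with the mutants.

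Within embryos the order was the same. In 11 of 11 embryos other than female mutant 3, DMH exceeded SP for every one of the 8 genes. The median ratio of DMH to SP was 177 for *Irx1*, 355 for *Irx2*, 26.7 for *Irx3*, 80.9 for *Irx5*, 2.10 for *Zic1*, 1.71 for *Zic2*, 2.01 for *Zic4* and 1.59 for *Zic5*. The smallest ratio was found in male control 1 for 6 of the genes and came down to 1.02 for *Zic5* and 1.17 for *Zic4*. In female mutant 3, whose DMH library held muscle, cartilage and meningeal transcripts, the ratio was 14.4 for *Irx1* and 1.07 for *Zic1*, and it was below 1 for *Zic2* (0.893), *Zic4* (0.831) and *Zic5* (0.742). The part of the non-neural transcripts in these ratios was not tested.

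**Figure D2:**
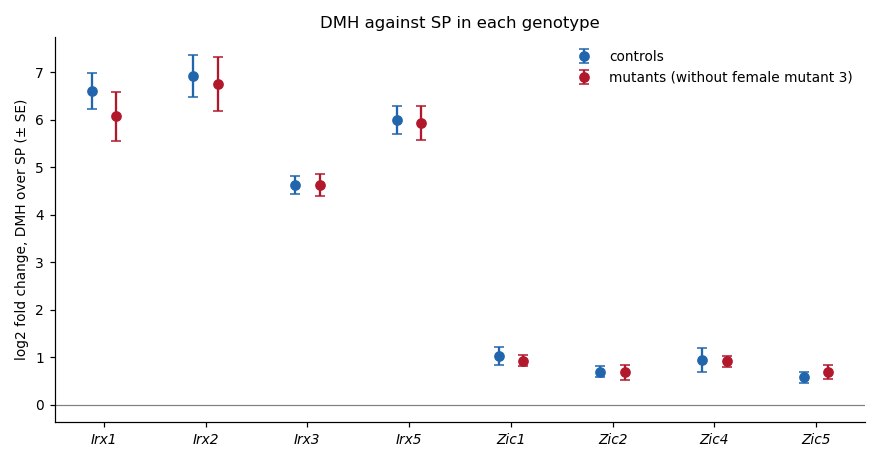
Log2 fold change of DMH over SP from edgeR, with its SE, for the 8 genes in controls (blue, 6 embryos) and in mutants without female mutant 3 (red, 5 embryos). The Irx genes lie between 4.62 and 6.93 and the Zic genes between 0.58 and 1.03, and the values of the genotypes lie close together.

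*Irx1*, *Irx2* and *Irx5* were highest in SP in the same 3 libraries, while *Irx3* was at 1.09 to 3.45 CPM over all 12 SP libraries. Female mutant 3 had the most, with 2.74 CPM of *Irx1*, 3.22 of *Irx2*, 3.45 of *Irx3* and 1.88 of *Irx5*. Male mutant 2 followed with 2.19, 2.11, 2.79 and 1.09 CPM, and male control 1 with 1.21, 1.65, 2.06 and 1.02 CPM, except that female mutant 2 exceeded it for *Irx3* with 2.18 CPM. These 3 SP libraries were also the highest in *Pou4f1*, a transcription factor of habenular and midbrain neurons, with 4.33, 4.01 and 2.42 CPM against at most 1.23 CPM in the others. Thalamic *Tcf7l2*, an effector of Wnt signalling, was at 164 CPM in female mutant 3, 149 CPM in male control 1 and 42.1 CPM in male mutant 2, against 14.6 to 54.1 CPM in the remaining SP libraries. The midbrain gene *En2* was at 0.152 CPM (6 counts) in female mutant 3 and at 0 to 0.070 CPM in the other SP libraries. Whether tissue from beyond the SP border set these Irx values was not tested.

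The Zic genes also varied together in SP. *Zic1* was lowest in male control 3 with 122 CPM and highest in female mutant 3 with 330 CPM. Male control 3 was lowest for *Zic2* (43.3 CPM), *Zic4* (22.2 CPM) and *Zic5* (27.3 CPM) as well. The same library had the lowest SP values of *Nkx2-1*, a gene of the ventral forebrain and hypothalamus, with 12.99 CPM against 32.5 to 51.2 CPM in the others, and of *Tcf7l2*. Male mutant 3 was at 199 CPM of *Zic1*, 46.1 CPM of *Zic2* and 30.3 CPM of *Zic5*. Its *Zic4*, at 46.5 CPM, was above that of female mutant 1 (41.6), female control 3 (41.7) and male mutant 1 (44.8 CPM). This library was low in meningeal genes, which summed to 110 CPM against 356 to 543 CPM in the other SP libraries, and in choroid plexus genes with 30.4 CPM against 195 to 532 CPM. The part of these tissues in the Zic levels was not tested.

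The comparison of mutants with controls asked whether loss of *Tfap2b* changes these patterning genes. None of the 8 passed the thresholds in DMH or SP, in either sex or with the sexes pooled. In DMH of both sexes, 9 of 17223 genes passed (0.0523%) and 0 of the 8. At an unadjusted p under 0.05 there were 5 of the 8 and 2590 of all genes, and with DESeq2 0 of the 8 and 52 of all genes passed. Without male mutant 1, 531 of all genes and 0 of the 8 passed, and without female control 2, the embryo with Y-linked transcripts, 3 of all genes and 0 of the 8. The study's own filter of log2 fold change over 0.5 was not reached by any of the 8 in this comparison.

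Mean values of these 4 Irx genes were higher in mutant than in control DMH, within overlapping groups and without passing the test. *Irx1* was at 40.5, 45.1, 55.2, 58.6 and 60.4 CPM in the 5 mutants tested and at 31.5 to 55.5 CPM (median 40.3) in the 6 controls, and the groups overlapped. Its log2 difference was 0.33 (SE 0.11, edgeR adjusted p = 0.33). *Irx2* was at 58.7 to 81.1 CPM in mutants and 45.2 to 73.8 CPM in controls, with a log2 difference of 0.30 (SE 0.08). *Irx3* was at 33.5, 39.2, 54.1, 54.4 and 54.7 CPM in mutants, where 3 libraries lay close together above the other mutants, and its log2 difference was 0.34 (SE 0.14). *Irx5* was at 24.5 to 43.5 CPM in mutants and 21.2 to 44.8 CPM in controls, with a difference of 0.27 (SE 0.16). Among the Zic genes, *Zic5* differed by 0.23 (SE 0.10), *Zic2* by 0.14 (SE 0.06), *Zic1* by 0.02 (SE 0.06) and *Zic4* by -0.04 (SE 0.08). *Zic1* ran from 433 to 515 CPM in mutants and 413 to 516 CPM in controls, which is nearly the same range. The edgeR adjusted p was 0.33 for *Irx1*, *Irx2*, *Irx3*, *Zic2* and *Zic5* and 0.39 to 0.86 for the other 3 genes. The median log2 difference of the 8 genes was 0.25, against -0.0025 over all genes tested.

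These differences moved with the caudal *Hox* content of the DMH libraries, which was unevenly spread over the groups. Of the 4 libraries nearly free of caudal *Hox* counts, 3 were mutants and 1 was a control. With the caudal *Hox* level as a covariate, the median log2 difference of the 8 genes was 0.053, *Irx1* was at 0.15 (SE 0.09), *Irx3* at 0.12 (SE 0.10) and *Irx5* at 0.0007 (SE 0.11). Over the 7 libraries with caudal *Hox* counts the median was 0.088, with *Irx1* at 0.18 (SE 0.13), *Irx2* at 0.21 (SE 0.09), *Irx3* at 0.21 (SE 0.13) and *Irx5* at 0.10 (SE 0.12). When female mutant 3 was added to these 7, the median was -0.065 and the values ran from -0.15 for *Zic5* to 0.09 for *Irx2*. In each of these fits 0 of the 8 genes passed. Over all genes 4 of 17555 passed with the covariate (0.0228%) and 4 of 17575 over the 7 libraries (0.0228%). With female mutant 3 added, 3 of 17744 passed (0.0169%).

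**Figure D3:**
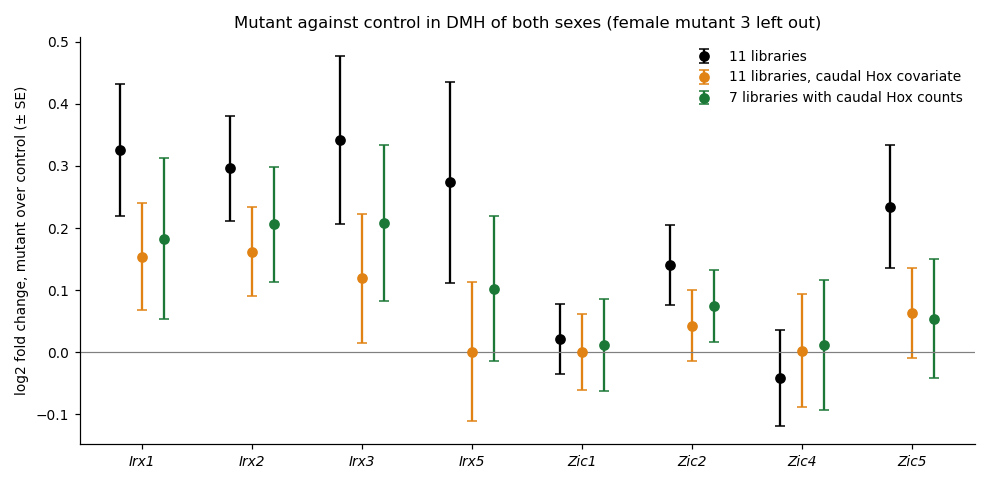
Log2 fold change of mutant over control DMH with its SE for the 8 genes, from all 11 libraries without female mutant 3 (black), from the same with the caudal Hox level as a covariate (orange), and from the 7 libraries with caudal Hox counts (green). The Irx values lie between 0.27 and 0.34 in the first fit and between 0.0007 and 0.16 with the covariate, and Zic1 and Zic4 lie near 0 in all of them.

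In females alone, 1 of 16773 genes passed in DMH (0.00596%) and 0 of the 8. At an unadjusted p under 0.05 there were 3 of the 8 and 1492 of all genes. Without female control 1, whose DMH library was nearly free of caudal *Hox* counts, 1117 of 16848 genes passed (6.63%) and 0 of the 8, and DESeq2 over all 5 libraries called 77 of all genes. Female mutants 1 and 2 were nearly free of caudal *Hox* counts too (0.246 and 0.105 CPM), while female controls 2 and 3 held 248 and 423 CPM. Genotype and caudal *Hox* content are thus nearly the same split here, and cannot be told apart without female control 1. The log2 differences ran from 0.01 (SE 0.08) for *Zic4* to 0.35 for *Irx1* (SE 0.15) and *Zic5* (SE 0.14). In males, 4 of 16962 genes passed in DMH (0.0236%) and 0 of the 8. At an unadjusted p under 0.05 there were 2 of the 8 and 490 of all genes, and the differences ran from -0.09 (SE 0.13) for *Zic4* to 0.41 (SE 0.18) for *Irx3*. In SP, 3 of 16615 genes passed in females (0.0181%) and 0 of 16562 in males, where 605 genes had an unadjusted p under 0.05 and DESeq2 called 7. None of the 8 passed or had an unadjusted p under 0.05 in SP. DESeq2 called 0 of the 8 in each of these comparisons. Without female control 2, 2 genes passed in female DMH and 0 of the 8, and 2 in female SP and 0 of the 7 members that were tested there.

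With the sexes pooled in SP, 0 of 16973 genes passed with edgeR, 861 had an unadjusted p under 0.05 and DESeq2 called 27, of which 0 were among the 8. Without female control 2 these counts were also 0 with edgeR. The log2 differences of the Irx genes were 0.72 (SE 0.75) for *Irx1*, 0.32 (SE 0.86) for *Irx2*, 0.29 (SE 0.25) for *Irx3* and 0.27 (SE 0.51) for *Irx5*. Each of these but that of *Irx3* was below or near its SE. The counts of *Irx1* in SP ran from 2 to 84 in these mutants and from 4 to 44 in controls. The Zic genes were measured more closely there, at 0.10 (SE 0.19) for *Zic1*, 0.12 (SE 0.17) for *Zic2*, -0.01 (SE 0.24) for *Zic4* and 0.09 (SE 0.14) for *Zic5*. The interaction of genotype and piece, which tests whether the mutant difference itself differs between DMH and SP, passed in 1 of 17684 genes (0.00565%), which was *Tfap2b*, and in 0 of the 8. Without female control 2 it passed in 1 gene and in 0 of the 8. None of the 8 had an unadjusted p under 0.05, and DESeq2 called 0 of them. The interaction values ran from -0.53 (SE 0.72) for *Irx1* to 0.12 (SE 0.18) for *Zic5*.

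Caudal *Hox* content separated the DMH libraries for most of the 8 genes, which is described here without a test, as the *Hox* level was read from the same libraries. *Irx1* was at 55.2, 55.5, 58.6 and 60.4 CPM in the 4 libraries nearly free of caudal *Hox* counts and at 31.5 to 47.8 CPM in the 7 others without female mutant 3. *Irx3* was at 54.1, 54.4, 54.7 and 56.0 CPM in the 4 and at 26.6 to 45.0 CPM in the 7, a ratio of means of 1.54. The same separation held for *Irx2* (73.8 to 81.1 against 45.2 to 65.5 CPM), *Irx5* (35.6 to 44.8 against 21.2 to 33.1 CPM), *Zic2* (108 to 131 against 91.7 to 106 CPM) and *Zic5* (66.5 to 78.7 against 44.7 to 58.6 CPM). The 4 libraries therefore lay above all 7 others for 6 of the 8 genes, where this was so for 13.1% of 14535 genes with a mean of at least 1 CPM in DMH (and the reverse for 11.6%). *Zic1*, at 433 to 516 CPM in the 4 and 413 to 490 CPM in the 7, overlapped, and so did *Zic4*, at 84.8 to 97.4 and 88.5 to 116 CPM.

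Several markers of midbrain and thalamus differed along the same split. *Tcf7l2* was at 822 to 1150 CPM in the 4 libraries and 443 to 628 CPM in the 7, *En2* at 56.6 to 77.1 and 37.9 to 54.7 CPM, and *Gata3*, a gene of GABAergic neurons of the midbrain and diencephalon, at 83.6 to 90.8 and 47.0 to 74.1 CPM. *Pou4f1* overlapped, at 97.8 to 124 and 78.5 to 102 CPM. The 5 rostral hindbrain genes summed to 15.04 to 30.4 CPM in the 4 and 48.6 to 56.6 CPM in the 7, but also to 25.9 to 32.8 CPM in the SP libraries with 2 or 3 of the 5 at 0, so that the sum is not specific to hindbrain. The rhombic lip gene *Atoh1*, which marks granule cell precursors, was at 1.82 to 3.34 CPM in the 4 and 4.44 to 5.47 CPM in the 7, whereas the list of 15 genes of the dorsal hindbrain and granule cell lineage that holds it summed to 878 to 934 CPM in the 4 and 590.1 to 809 CPM in the 7. That list also summed to 442 to 537 CPM in the SP libraries, with 0 to 4 of the 15 at 0, and is not specific to hindbrain either. Choroid plexus genes summed to 86.2 to 451 and 452 to 683 CPM, and the 10 genes of meninges and mesenchyme to 533 to 649 and 653 to 859 CPM. The part of these tissues in the levels of the Zic genes was not tested. Since levels are shares of the whole piece, a piece with less hindbrain and a higher level within the remaining tissue cannot be told apart.

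**Figure D4:**
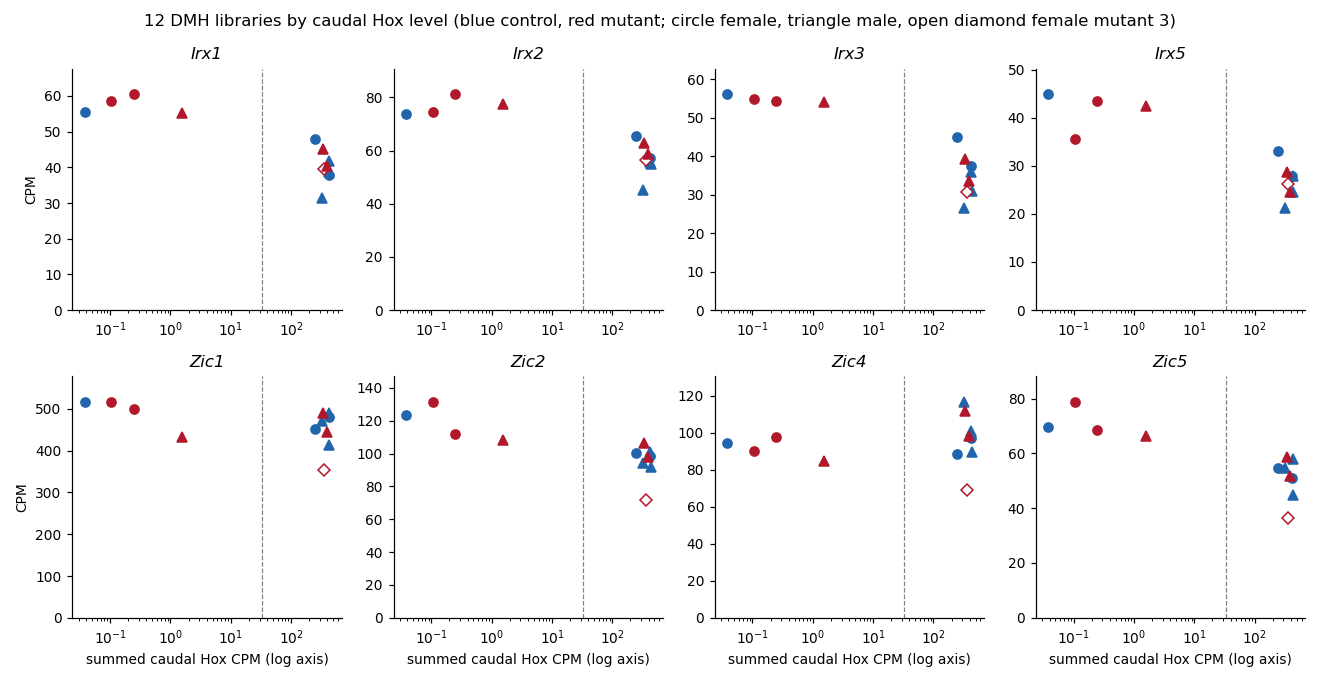
CPM of the 8 genes in the 12 DMH libraries against the summed level of 12 caudal Hox genes (log axis), with controls in blue, mutants in red, circles for females, triangles for males and an open diamond for female mutant 3. The 4 libraries left of the dashed line at 32.99 CPM lie above the others for the Irx genes, Zic2 and Zic5 but not for Zic1 and Zic4.

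The 8 genes fell into different courses across the DMH libraries. Pearson's r of log2(CPM + 0.5) over the 11 DMH libraries, which share the split by caudal *Hox* content, is given as a description. The 4 Irx genes ran closely together, with r from 0.94 to 0.98 for every pair, whether on the same chromosome (*Irx1* with *Irx2*, 0.98, and *Irx3* with *Irx5*, 0.97) or on different ones (*Irx2* with *Irx3*, 0.97). *Zic2* and its neighbour *Zic5* had 0.94. The overlapping neighbours *Zic1* and *Zic4* had only 0.33, and *Zic4* ran against the Irx genes, at -0.55 to -0.60.

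Over the 7 libraries with caudal *Hox* counts the Irx pairs kept r of 0.88 to 0.98, *Zic2* with *Zic5* had 0.82 and *Zic1* with *Zic4* 0.64. In those 7 libraries *Zic5* was hardly related to the Irx genes, at 0.16 to 0.35, where it had 0.76 to 0.83 over all 11. In SP, over 11 libraries, *Zic1* and *Zic4* had 0.90, *Zic2* and *Zic5* 0.95, and the Irx pairs 0.69 to 0.97 at levels near 0.

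**Figure D5:**
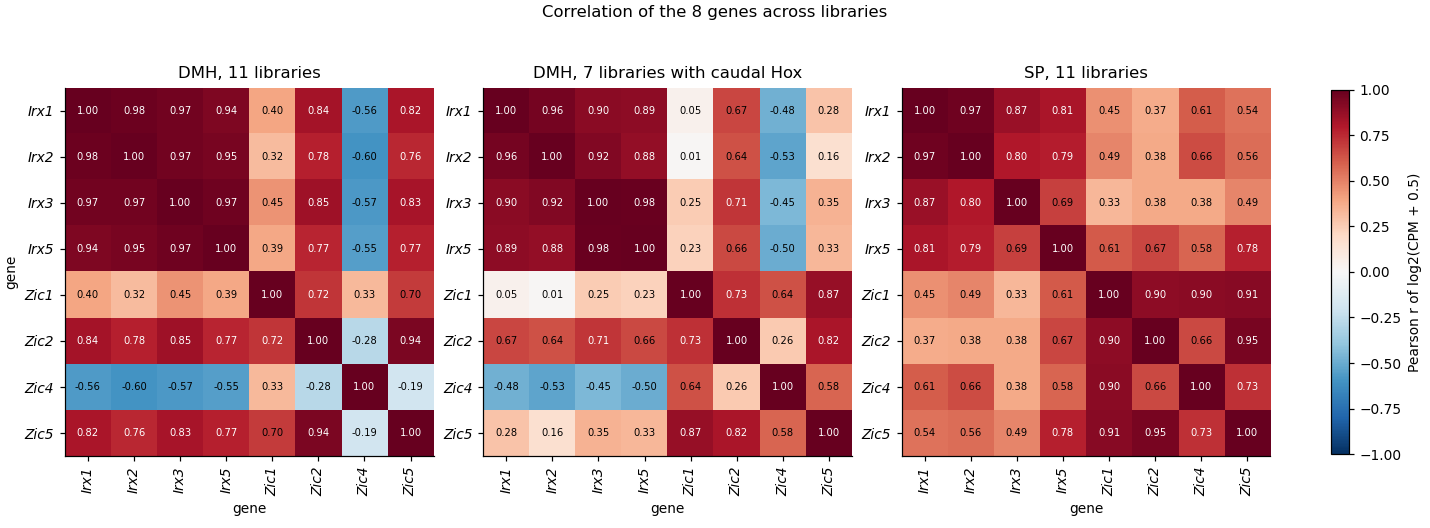
Pearson correlation of log2(CPM + 0.5) between the 8 genes over 11 DMH libraries, over the 7 of them with caudal Hox counts, and over 11 SP libraries, all without female mutant 3 (red positive, blue negative). The Irx block is at 0.88 or above in both DMH panels, and Zic4 is at -0.45 to -0.60 with the Irx genes in DMH but positive in SP.

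Among 11673 genes outside the Irx and Zic families with a mean of at least 5 CPM, those most like each of the 8 over the 11 DMH libraries were sought. The split by caudal *Hox* content enters these r, which were not computed over the 7 libraries with caudal *Hox* counts alone. *Irx3* was most like *Shox2* (r = 0.994) and *Sox14* (0.992), transcription factors of diencephalic and midbrain neurons. *Irx5* was most like the midbrain gene *En2* (0.986), and *Tal1*, a factor of midbrain and hindbrain GABAergic neurons, was the third closest (0.983). *Atxn7l3b* was among the 3 closest of all 4 Irx genes (0.969 to 0.983). *Irx1* and *Irx2* were both most like *Arpc4*, an actin regulator (0.974 and 0.971). *Zic2* was most like *Hsd17b12* (0.978), and *Zic5* like *Pnmal1* (0.983). *Zic1* (*Ppm1m*, 0.927) and *Zic4* (*Cdc7*, a kinase of DNA replication, 0.855) had no match as close. *Shox2*, at a mean of 111 CPM in DMH and 2.09 CPM in SP, *Sox14* (41.6 and 0.430 CPM) and *En2* (54.3 and 0.0473 CPM) shared the near absence from SP with the Irx genes. *Atxn7l3b* (696 and 590.4 CPM) and *Arpc4* (73.6 and 68.2 CPM) did not.

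*Irx4* and *Irx6* were followed beside the 8. They lie next to *Irx2* and *Irx5* and were rare, at 1.68 to 4.57 and 4.4 to 10.2 CPM in DMH. In SP, *Irx4* was at 0 to 2 counts per library, and *Irx6* was at 0 to 2 counts except for 13 in male control 1 and 25 in female mutant 3, both among the libraries richest in the other Irx genes. *Irx6* also lay above in all 4 DMH libraries nearly free of caudal *Hox* counts, at 8.20 to 10.2 CPM against 4.73 to 6.59 CPM, whereas *Irx4* did not (1.68 to 4.05 against 3.29 to 4.57 CPM). Over the 11 DMH libraries *Irx4* had r of -0.43 to -0.32 with *Irx1*, *Irx2*, *Irx3* and *Irx5*, and *Irx6* had 0.91 to 0.95 with them. Over the 7 libraries with caudal *Hox* counts these values were 0.48 to 0.60 for *Irx4* and 0.79 to 0.89 for *Irx6*. Between mutants and controls in DMH of both sexes, *Irx4* differed by -0.17 (SE 0.20) and *Irx6* by 0.37 (SE 0.14) on the log2 scale, and in females alone *Irx4* differed by -0.54 (SE 0.36). Neither passed in the comparisons of mutants with controls in DMH or in the interaction, and in SP they were not tested.

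Genes known to act with the Irx and Zic genes showed a divided course along the brain. Of 19 patterning partners, all tested, 9 were higher and 7 lower in control DMH, where 21.2% of all genes were higher and 35.9% passed in either direction. The median log2 difference was 0.34 against -0.0029 over all genes. The midbrain genes *En1* (log2 10.71, SE 0.32) and *En2* (9.90, SE 0.23) and *Wnt1* of the roof plate (6.78, SE 0.41) were higher with the smallest p. The Gli genes *Gli2* (-1.66, SE 0.06) and *Gli3* (-1.58, SE 0.06), relatives of the Zic genes, and *Pax6* (-1.25, SE 0.06) were lower in DMH. In mutants 10 were higher and 6 lower, where 20.3% of all genes were higher and 36.2% passed in either direction.

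Of 15 genes of the dorsal hindbrain and granule cell lineage, 14 were tested in controls, and 11 were higher and 2 lower in DMH, against the same 21.2% of all genes higher and 35.9% in either direction, with a median log2 difference of 2.35. *Atoh1* (log2 9.01, SE 0.42), *Pax3* of the dorsal neural tube (6.48, SE 0.15) and *Mab21l1* (3.02, SE 0.07) were higher, and *Lhx2* (-1.67, SE 0.11) and *Neurod1* (-1.11, SE 0.08), which are also forebrain genes, were lower. In mutants 13 of 15 were higher and 2 lower, against 20.3% and 36.2% of all genes. In DMH of both sexes, 0 of the 19 and 0 of the 15 passed between mutants and controls, beside 9 of 17223 genes (0.0523%). Their medians were 0.31 and 0.18, against -0.0025 over all genes. In each other comparison of genotypes and in the interaction 0 genes of either list passed, beside 0% to 0.0236% of all genes.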

How the data were processed

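RNA of 24 libraries from 12 mouse embryos (polyA-selected, dUTP-stranded, paired reads) was analysed from the gene tables the authors deposited. Per the labels, reads were trimmed with cutadapt 2.4 and aligned and counted with STAR 2.6.1d to GRCm38.p6. The annotation release is not given in the sources used here, and 53229 of 54446 gene IDs matched GENCODE vM21. The authors deposited raw counts per gene, unstranded and for each strand. The reverse-strand counts were used here, as the dUTP protocol requires. Lines that name no gene (17.3% to 25.9% of fragments) were left out.

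The 8 genes and all gene lists were chosen with earlier results of these data known, and tests of them are not independent of that. Named genes were the 8, *Irx4* and *Irx6*, at most 3 genes per direction of each list with the smallest p, and the 3 most alike genes per member, of which some are given. Some items under this rule and in the marker lists are not reported here. Each comparison was an edgeR 4.0.16 quasi-likelihood fit (TMM, filterByExpr, robust) over all genes in R 4.3.3, with sex as a covariate where sexes were pooled. Benjamini-Hochberg adjusted p-values run over all genes tested. SEs were derived from the F statistic. Female mutant 3 was left out, as by the authors on principal components. CPM used TMM factors over all 24 libraries and are on a linear scale. Alternatives used DESeq2 1.42.0, other filters and scalings, unstranded counts and leaving out each embryo. The fits were also run on simulated counts with the same relative spread for all genes and no split by caudal *Hox* content. Changes were planted only in genes over 5 CPM, so that run does not measure the errors of the fits in these libraries. SP and DMH libraries with the same number come from the same embryo: over all 12 embryos the deviations of the pair correlated at 0.13 to 0.67, and each correlated best with its own partner. None of the 24 pairs of libraries of the same sex, piece and genotype agreed within sampling noise (at least 9.62 chi-square units per gene). Embryos are the replicates, and litters are not given in the sources used here.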

Additional observations from a re-analysis of the deposited data

Results flagged for a closer look

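Of 32 groups of 6 libraries examined for the 8 genes, 3 had a highest library far from the rest. Chance flags about 1 in 20 independent groups of normally distributed values. The groups here are not independent, because the 8 genes were measured in the same libraries, so the 2 rates cannot be compared. *Irx2* was at 1.65 CPM in the SP library of male control 1, against 0.0766 to 0.512 CPM in the other control SP libraries. *Irx5* was at 1.02 CPM in the same library, against 0.229 to 0.492 CPM. *Zic2* was at 123 CPM in the DMH library of female control 1, against 91.7 to 101 CPM in the other control DMH libraries, and this library is the control nearly free of caudal *Hox* counts.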

How the results depend on the processing

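All 8 genes were higher in DMH in controls and in mutants under other scaling, no filter, unstranded counts, FDR under 0.05 and without each embryo. With at least 10 counts required in every library 5 were counted in both, because *Irx1*, *Irx2* and *Irx5* were not tested. DESeq2 gave no adjusted p for *Irx1* and *Irx2* in mutants and called the other 6. The count of the 8 that passed between mutants and controls, and in the interaction, was 0 under every alternative and without each library or embryo, with 5 of the 8 tested at 10 counts in SP and in the interaction, 7 in female SP without female control 2, and 7 in male SP without male control 1 or male mutant 2. Longest transcripts gave 22.4 (*Irx2*), 41.6 (*Zic2*) and 25.2 (*Zic4*) CPM per kilobase in control DMH.

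Log2 differences that changed sign did not pass in either fit. In DMH of both sexes, *Zic1* was at -0.0521 with female mutant 3, -0.000217 with the caudal *Hox* covariate and -0.0043 to 0.048 without 1 embryo, and *Zic4* at 0.00228 with the covariate, 0.0113 over the 7 libraries with caudal *Hox* counts and -0.0857 to 0.0173 without 1 embryo. Over those 7 and female mutant 3, chosen after seeing the data, *Irx3* was at -0.0136, *Irx5* -0.0121, *Zic1* -0.131, *Zic2* -0.117 and *Zic5* -0.151. In SP of both sexes *Zic4* was at 0.138 with female mutant 3, and without 1 embryo the ranges were -0.311 to 1.36 for *Irx1*, -0.893 to 1.25 for *Irx2*, -0.164 to 0.713 for *Irx5*, -0.0717 to 0.213 for *Zic1*, -0.0104 to 0.228 for *Zic2*, -0.209 to 0.165 for *Zic4* and -0.0145 to 0.167 for *Zic5*. The lower end for the Irx genes was without male mutant 2 and the upper without male control 1. The cause was not tested.

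The replicate number as a block gave 8 of 8 in both comparisons of DMH with SP, where numbers mark the embryo, and changed no call. Mutants and controls share only a number (r of -0.23 to 0.66, with 7 of 12 mutant libraries correlating best with their own number). With the block *Irx2* was at -0.114 and *Zic4* at 0.0176 in SP of both sexes, 41 genes were called for DMH of females, 8 for DMH of males and 71 for SP of females, and the embryo as a block, chosen after seeing the data, left the interaction at 1 gene.

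Counts over all genes moved more. Without 1 embryo they ran from 0 to 1117 in female DMH (1117 without female control 1), 3 to 16 in male DMH, 1 to 6 in female SP, 0 to 8 in male SP, 2 to 531 in DMH of both sexes (531 without male mutant 1), 0 to 3 in SP of both sexes and 1 to 5 in the interaction. Without a filter 535, 17, 25, 1 and 12 genes were called for DMH of females, DMH of males, SP of females, SP of males and SP of both sexes, and DESeq2 called 77, 13, 8, 7 and 27 in the same order, 52 in DMH of both sexes and 6 in the interaction. Unstranded counts gave 4 in female DMH and in DMH of both sexes. In DMH of both sexes there were 5 with female mutant 3, 1 without the sex covariate, 4 with the caudal *Hox* covariate, 4 over the 7 libraries, 3 with female mutant 3 added to them and 2 at FDR under 0.05. Female SP had 0 with female mutant 3 and 1 at FDR under 0.05, SP of both sexes 1 with female mutant 3, and male DMH 7 without male mutant 2. The interaction had 170 without the embryos nearly free of caudal *Hox* counts, which was chosen after seeing the data.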
